A study of Mus musculus with 25 samples.

Results

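Of the 18194 genes that the array's probe sets name singly, 8 encode the RNA polymerase III subunits described here, and they were measured by 24 of the 45101 probe sets, namely every probe set that the array's annotation names for Polr3a, Polr3b, Polr3c, Polr3d, Polr3e, Polr3f, Polr3g or Polr3k and for no other gene. These 8 genes were taken up because 1 probe set of Polr3k had stood higher in handled than in non-handled mice in the same data, so every handled against non-handled value of these genes is given as a description. Where such values are counted as called or not, the count is set beside the share of all probe sets called, and nothing is drawn from it. The comparison of the extraction methods did not choose the genes and is tested. The exception is that Polr3k probe set, whose extraction difference is also given as a description.

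The mice were 11 handled and 14 non-handled Balb c/J females, an inbred strain, with 1 array per mouse. Handled pups spent 15 minutes of each morning away from the mother between postnatal days 1 and 14, and non-handled pups stayed with her. All mice went through behavioral tests, which the labels place at 8 weeks of age, and CA1, a field of the hippocampus, was dissected 2 weeks later. The paper has open field tests begin at about that age and places a light-dark test after it. RNA was extracted with RNA/DNA columns from 7 handled and 10 non-handled mice and with Trizol from 4 handled and 4 non-handled mice, and the columns were used on a separate set of animals, so extraction method and set of animals cannot be told apart. The paper counts 11 litters, each either handled or non-handled, so mice of a handling group shared litters. The litter of each mouse is not given in the sources used here, and standard errors and p-values treat mice as independent.

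RNA polymerase III is the nuclear enzyme that makes short untranslated RNAs, among them the tRNAs, the 5S ribosomal RNA and the U6 spliceosomal RNA. It has a catalytic core, a stalk, a heterodimer related to the general factor TFIIF, a heterotrimer related to TFIIE, and small subunits, some of which it shares with RNA polymerases I and II. The arrays measured the mRNAs that encode the subunits and not the RNAs that the enzyme makes.

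Values are log2 of the MAS 5.0 signal, a hybridization intensity on a scale set separately for each probe set by its own probes, so levels are compared between mice and never between probe sets. Differences are also on this log2 scale, with their standard errors (SE), and a probe set is called changed where limma's p-value, adjusted over 45037 non-control probe sets by the Benjamini-Hochberg method, is under 0.05. The mean signal of an array lay between 737 and 910, and the mean correlation of an array with the others lay between 0.848 and 0.894. As a check of the labelled tissue, the brightest probe set of each CA1 pyramidal cell marker (Wfs1, Fibcd1, Man1a and Neurod6) had a mean signal at percentiles 84.0 to 99.0 of all probe sets, so all 4 gave signal. How much of other fields the tissue held cannot be read from such ranks, since each probe set has its own scale. In whole tissue, a change in the number of cells of a type and a change in RNA per cell cannot be told apart. All 24 probe sets were tested and none was removed by a filter on low signal. The files used here hold no call of presence or absence, and the mean signals of the 24 lay at percentiles 10.7 to 83.1 of all probe sets.

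Polr3k encodes the small subunit that, by analogy with yeast, helps the enzyme cleave its transcript and terminate. The gene lies on chromosome 2 at 181864360 to 181870830 (GRCm38.p6, RefSeq), and 6 probe sets were named for it. Only 1456731_x_at set handled and non-handled mice apart. With columns its log2 signal had a lowest, median and highest value of 10.12, 10.89 and 11.17 in the 7 handled mice, against 7.86, 8.72 and 9.75 in the 10 non-handled mice. With Trizol it was 10.56, 9.47, 7.09 and 6.85 in the 4 handled mice, against 8.20, 7.84, 7.66 and 7.49 in the 4 non-handled mice. With columns the groups did not overlap, and the signal of the lowest handled mouse was 1.30 times that of the highest non-handled mouse. With Trizol 2 handled mice were above all 4 non-handled mice and the other 2, H130 and H131, were below all of them.

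**Figure D1:**
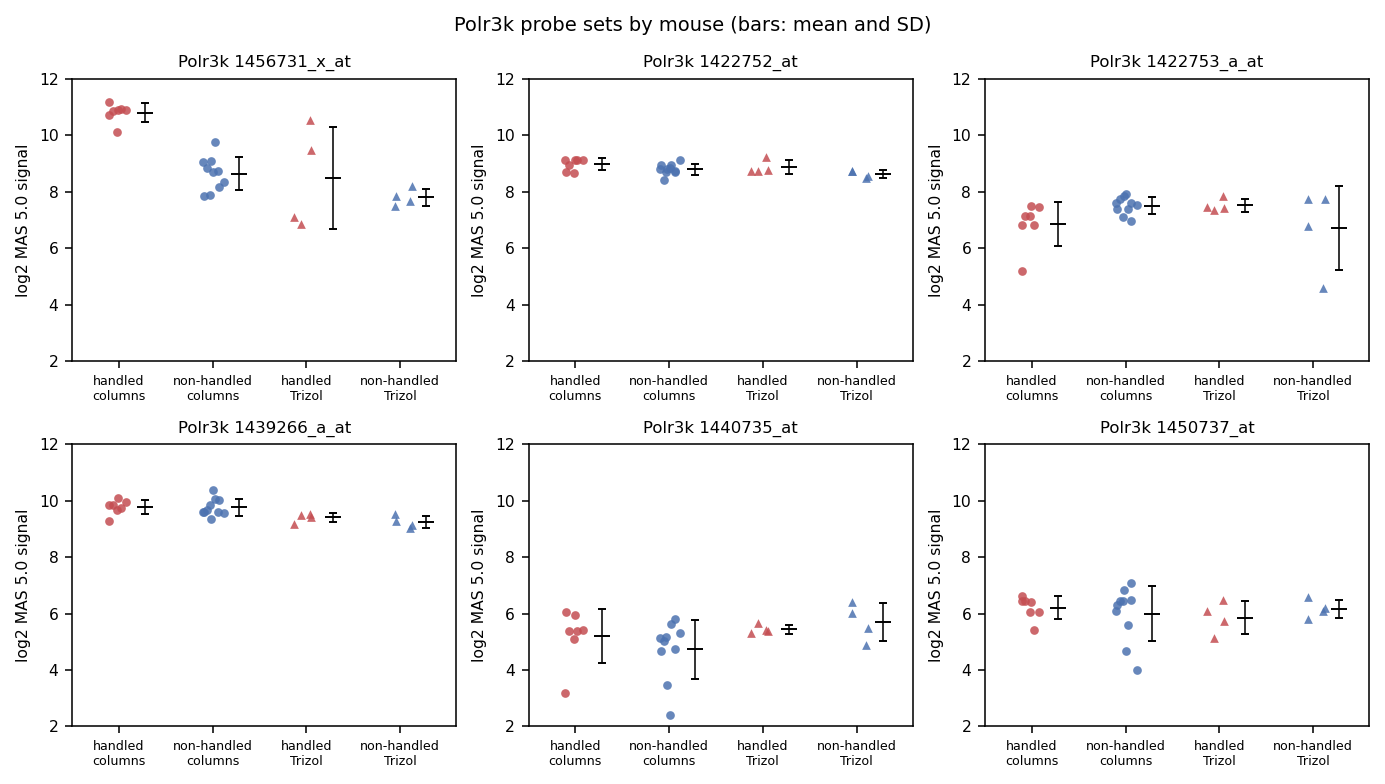
Log2 MAS 5.0 signal of the 6 Polr3k probe sets in each mouse, 1 panel per probe set, by handling (red, handled; blue, non-handled) and extraction (circles, columns; triangles, Trizol), with bars for the mean and SD of each group. Handled mice with columns lie between 10.12 and 11.17 in 1456731_x_at, above all non-handled mice, and the groups overlap in the other 5 panels.

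The log2 signal of 1456731_x_at with columns averaged 10.80 ± 0.33 (SD, n = 7) across handled mice, against 8.64 ± 0.59 (SD, n = 10) across non-handled mice, so handled mice were higher by 2.16 (SE 0.21). With Trizol the averages were 8.49 ± 1.81 (SD, n = 4) across handled mice, against 7.80 ± 0.30 (SD, n = 4) across non-handled mice, and the difference of 0.70 (SE 0.60) was little more than its SE. The SE within Trizol comes from the wide spread of the 4 handled mice, with a gap of 2.37 between the lower and the upper pair. Over all mice the difference was 1.68 (SE 0.30), and it stayed between 1.53 and 1.89 when each mouse was left out in turn. The interaction of handling and extraction was 1.46 (SE 0.58) and was not called, and it was called for none of the 24 probe sets (0.0511% of all probe sets were called). The interaction of this probe set is a description, since handling values chose it.

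In linear signal 1456731_x_at ran 19.9-fold between the highest mouse, H108 at 2298, and the lowest, H130 at 115.7. Of the 11 handled mice, 8 were above all 14 non-handled mice and 2 were below all of them. Both low mice carry the highest numbers among the handled mice in the sample titles. What the mouse numbers stand for is not given in the sources used here, and since each number belongs to handled or to non-handled mice in a separate range, number and handling cannot be told apart.

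**Figure D2:**
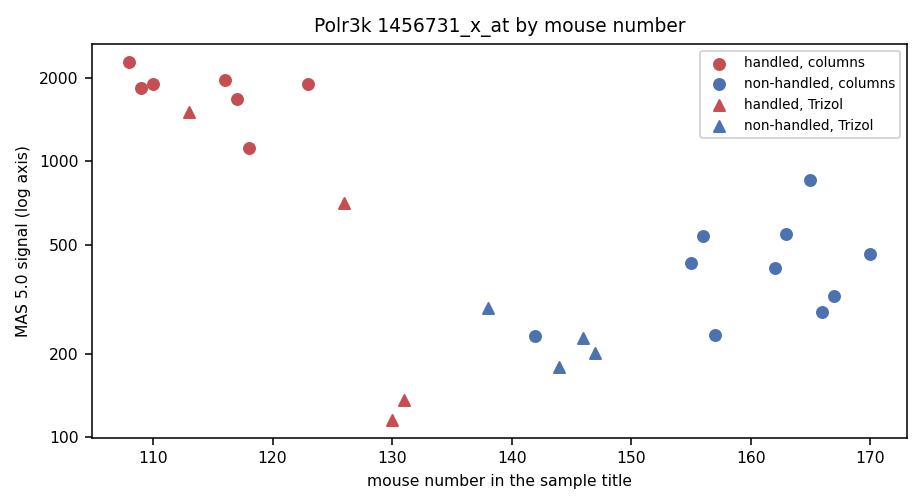
MAS 5.0 signal of Polr3k 1456731_x_at (log axis) against the mouse number in the sample title, 1 point per mouse (red, handled; blue, non-handled; circles, columns; triangles, Trizol). H130 at 115.7 and H131 at 137 are the lowest points, while the other 9 handled mice lie between 707 and 2298.

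The other 5 Polr3k probe sets did not share this difference. Over all mice they differed between handled and non-handled mice by -0.17 to 0.23, with 4 of 5 positive and 0 called (11.5% of all probe sets were called, 3.58% higher and 7.93% lower). The brightest, 1439266_a_at, had a lowest, median and highest log2 signal of 9.18, 9.68 and 10.09 in handled mice, against 9.04, 9.60 and 10.38 in non-handled mice, a difference of 0.06 (SE 0.10). The next, 1422752_at, had 8.67, 8.95 and 9.24 in handled mice, against 8.41, 8.74 and 9.11 in non-handled mice, a difference of 0.19 (SE 0.09). For 1422752_at it was 0.17 (SE 0.11) with columns and 0.23 (SE 0.19) with Trizol, or 0.11 with Trizol without H113. In both probe sets the ranges of handled and non-handled mice overlapped over most of their length. H130 and H131, the low mice of 1456731_x_at, lay inside the non-handled range in both. H131 was the lowest handled mouse in 1439266_a_at.

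Probe sets 1422753_a_at, 1450737_at and 1422752_at were designed on the same source sequence. For 1422753_a_at the handled minus non-handled difference was -0.64 (SE 0.26) with columns, where 1 handled mouse, H117, had 5.20 against 6.81 to 7.48 in the other 6, and without it the difference was -0.37. With Trizol it was 0.80 (SE 0.56), where 1 non-handled mouse, NH147, had 4.60 against 6.77 to 7.76 in the other 3. For 1450737_at it was 0.22 (SE 0.39) with columns and -0.31 (SE 0.51) with Trizol. For 1440735_at, a dim probe set at percentile 26.2, it was 0.46 (SE 0.52) with columns and -0.26 (SE 0.57) with Trizol. The 1456731_x_at suffix marks probes that can also match other transcripts, and _a_at and _s_at mark probes shared by several transcripts. Which transcripts the probes match was not tested.

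The other 7 subunits did not share the difference either. Their 18 probe sets differed between handled and non-handled mice by -1.07 to 0.47, with 10 positive and 8 negative and a median of 0.03. Of the 18, 0 were called, beside 11.5% of all probe sets. Over all 24 probe sets the median was 0.06, against -0.15 over all tested probe sets. The -1.07 (SE 0.42) belonged to Polr3b 1443494_at, a dim probe set, and the 0.47 (SE 0.29) to Polr3b 1452949_at, so the largest differences of either sign lay in the same gene. The difference of Polr3b 1452949_at was 0.75 with columns and -0.13 with Trizol. Polr3a 1437525_a_at differed by 0.29 (SE 0.11), with 0.28 with columns and 0.29 with Trizol. Without its low non-handled mice the Polr3a difference was smaller, 0.21 with columns without NH170 and 0.13 with Trizol without NH144. Besides 1456731_x_at, no probe set separated handled from non-handled mice with columns (1.63% of all did, 0.502% with handled mice higher), and 0 of 24 did so with Trizol (3.85%).

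**Figure D3:**
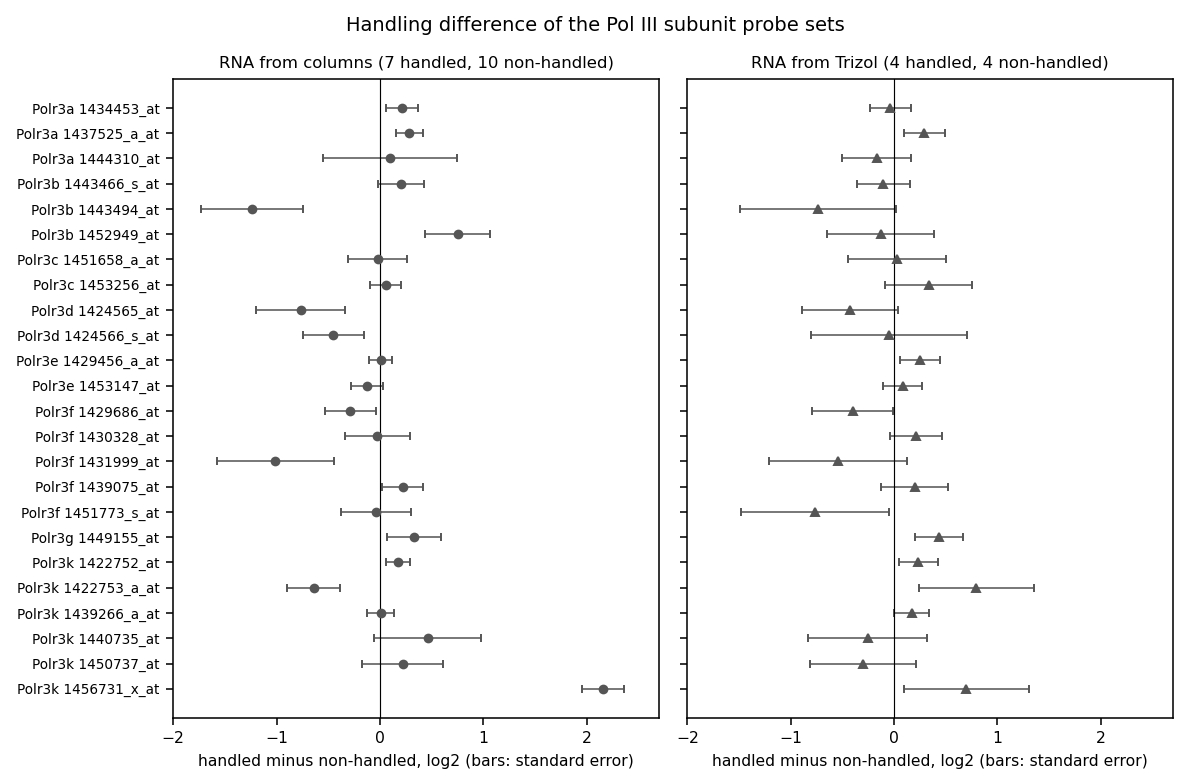
Handled minus non-handled difference in log2 signal for the 24 Pol III subunit probe sets, with RNA from columns on the left and from Trizol on the right (points, estimates; bars, SE). Polr3k 1456731_x_at stands at 2.16 with columns and 0.70 with Trizol, and no other probe set passes 1 on the positive side in either panel.

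Between the extraction methods, probe sets of Polr3a, Polr3e, Polr3f and Polr3g were called lower with columns, and probe sets of Polr3c and Polr3k were called higher. Of the 24 probe sets, 3 were higher with columns than with Trizol, 6 were lower and 15 did not pass the test, which is 37.5% called against 39.8% of all probe sets (16.5% higher and 23.3% lower). The median difference of the 24 was -0.27, against -0.16 over all tested probe sets. When arrays were quantile normalized, the median over all probe sets became 0.16 and that of the 24 became 0.11, with 7 higher and 3 lower, and 6 calls were shared with the values as deposited. Over all probe sets the calls were 7430 higher and 10500 lower as deposited, and 10756 higher and 8091 lower after quantile normalization, so directions close to these medians depend on how arrays are scaled.

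Polr3a and Polr3b encode the 2 largest subunits, which together form the active site. Polr3a lies on chromosome 14 at 24448694 to 24487070, and its 1444310_at held the largest extraction difference of the 24. Its log2 signal was 2.47, 4.35 and 6.89 (lowest, median and highest) in the 17 mice with columns, against 7.11, 7.61, 7.78 and 7.82 in the handled and 6.96, 7.64, 7.84 and 8.54 in the non-handled mice with Trizol. No mouse with columns reached the lowest mouse with Trizol, though that gap was narrow. The difference was -3.37 (SE 0.48, limma adjusted p = 5.56e-07), and it was -3.23 within handled and -3.49 within non-handled mice. This probe set was dim, at percentile 30.2, with signals of 5.53 to 119 with columns, and its size depended on the low values: with an offset of 32 signal units before the log it was -2.07 and was also called. The other Polr3a probe sets differed far less, with -0.46 (SE 0.13, limma adjusted p = 0.00317) for 1434453_at and -0.26 (SE 0.12, limma adjusted p = 0.0768) for 1437525_a_at. The call of 1434453_at was not kept under quantile normalization (-0.18, limma adjusted p = 0.329).

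Polr3b lies on chromosome 10 at 84622292 to 84727178, and none of its 3 probe sets passed the test. The differences were -0.37 (SE 0.19) for 1443466_s_at, -0.91 (SE 0.45) for 1443494_at and -0.27 (SE 0.31) for 1452949_at, with limma adjusted p of 0.119, 0.111 and 0.533 in the same order. Mice spread widely in 1443494_at, where the log2 signal was 3.17, 5.15 and 6.72 (lowest, median and highest) with columns, against 4.09, 4.31, 6.41 and 7.14 in handled and 4.90, 5.95, 6.69 and 7.35 in non-handled mice with Trizol. These ranges overlapped over most of their length.

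Polr3d and Polr3e encode the TFIIF-like heterodimer. Polr3e, on chromosome 7 at 120917778 to 120947435, was lower with columns in both of its probe sets, which were designed on the same source sequence. In 1453147_at the log2 signal was 7.18, 7.77 and 8.26 (lowest, median and highest) with columns, against 8.58, 8.90, 9.001 and 9.20 in handled and 8.64, 8.78, 8.95 and 8.98 in non-handled mice with Trizol. The mice of the 2 methods did not overlap, and the difference was -1.08 (SE 0.13, limma adjusted p = 1.01e-08), or 2.11-fold lower with columns. In 1429456_a_at the mice did overlap and the difference was -0.33 (SE 0.10, limma adjusted p = 0.00787), which did not pass the test under quantile normalization (-0.14, limma adjusted p = 0.298).

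Polr3d lies on chromosome 14 at 70438748 to 70443471, and its 2 probe sets had differences of opposite sign, neither past the test. They were -0.41 (SE 0.36, limma adjusted p = 0.407) for 1424565_at and 0.54 (SE 0.37, limma adjusted p = 0.265) for 1424566_s_at. Under quantile normalization both were positive, at 0.03 for 1424565_at and 0.99 (limma adjusted p = 0.0359) for 1424566_s_at. In 1424566_s_at the log2 signal with Trizol was 4.61 in H113 and 4.36 in NH144, against 7.18 to 7.74 in the other 6 mice.

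Polr3c, Polr3f and Polr3g encode the TFIIE-like heterotrimer, which acts in initiation. Polr3c, on chromosome 3 at 96711520 to 96727498, was the subunit with a higher signal with columns in a probe set whose mice did not overlap. In 1453256_at the log2 signal was 7.58, 7.97 and 8.32 (lowest, median and highest) with columns, against 6.25, 7.10, 7.17 and 7.48 in handled and 6.04, 6.41, 6.88 and 7.33 in non-handled mice with Trizol. Every mouse with columns was above every mouse with Trizol, and the difference was 1.18 (SE 0.17, limma adjusted p = 4.7e-07), or 2.26-fold. The second Polr3c probe set, 1451658_a_at, had a difference of 0.50 (SE 0.24, limma adjusted p = 0.107), which passed the test after quantile normalization (0.98, limma adjusted p = 0.00137).

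Polr3f, on chromosome 2 at 144527745 to 144541779, had 5 probe sets, of which 1 was called. In 1430328_at the log2 signal was 4.88, 6.20 and 6.83 (lowest, median and highest) with columns, against 7.86, 8.28, 8.51 and 8.80 in handled and 7.91, 7.99, 8.07 and 8.64 in non-handled mice with Trizol. The gap between the highest mouse with columns and the lowest with Trizol was the widest of the 4 probe sets that did not overlap. The difference was -2.08 (SE 0.23, limma adjusted p = 2.17e-09), or 4.24-fold lower with columns. The other 4 Polr3f probe sets lay between -0.53 and 0.14, and none passed the test, although 1439075_at, at -0.00 (SE 0.17), became 0.44 (limma adjusted p = 0.0274) under quantile normalization.

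Polr3g, on chromosome 13 at 81673837 to 81711013, had 1 probe set, 1449155_at. Its log2 signal was 5.22, 7.34 and 7.88 (lowest, median and highest) with columns, against 8.14, 8.404, 8.41 and 8.41 in handled and 7.49, 7.80, 8.10 and 8.24 in non-handled mice with Trizol. Handled mice with Trizol were above every mouse with columns, while the non-handled mice with Trizol reached into their range. The difference was -0.80 (SE 0.21, limma adjusted p = 0.00176), and under quantile normalization it was -0.45 (limma adjusted p = 0.119).

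**Figure D4:**
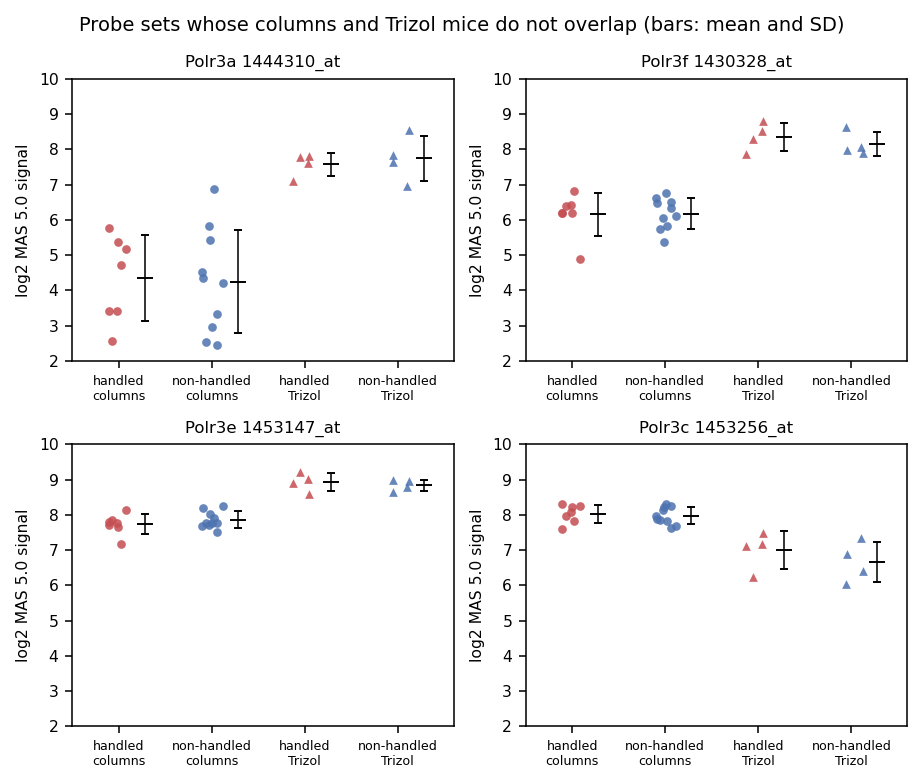
Log2 MAS 5.0 signal of the 4 probe sets in which no mouse with columns overlapped a mouse with Trizol, by handling (red, handled; blue, non-handled) and extraction (circles, columns; triangles, Trizol), with bars for the mean and SD. Polr3a 1444310_at, Polr3f 1430328_at and Polr3e 1453147_at are lower with columns and Polr3c 1453256_at is higher, in handled and non-handled mice alike.

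Of the 24 probe sets, these 4 separated the mice by extraction method, 1 with columns higher and 3 with columns lower, against 11.5% of all probe sets (3.33% higher and 8.15% lower). Polr3k was called higher with columns in 2 of its 6 probe sets, and 1422752_at, at 0.14 (limma adjusted p = 0.308), was called as well under quantile normalization (0.33, limma adjusted p = 0.00848) and with arrays scaled to the same mean and SD (0.34, limma adjusted p = 0.00662). For 1439266_a_at the log2 signal was 9.26, 9.76 and 10.38 (lowest, median and highest) with columns, against 9.18, 9.44, 9.49 and 9.53 in handled and 9.04, 9.13, 9.27 and 9.52 in non-handled mice with Trizol. Mice overlapped between 9.26 and 9.53, and the difference was 0.45 (SE 0.11, limma adjusted p = 0.001).

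For 1456731_x_at the extraction difference was 1.53 (SE 0.32), with 2.31 (SE 0.47) within handled and 0.85 (SE 0.27) within non-handled mice. Handling values chose this probe set and its handled mice stood highest with columns, so its extraction difference is a description. Its lowest Trizol values were those of H130 and H131. When each mouse was left out in turn the difference stayed between 1.23 and 1.76. Extraction differences among the Polr3k probe sets ran from -0.62 for 1440735_at to 1.53, a spread of 2.16, against 3.11 among the Polr3a and 2.23 among the Polr3f probe sets.

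**Figure D5:**
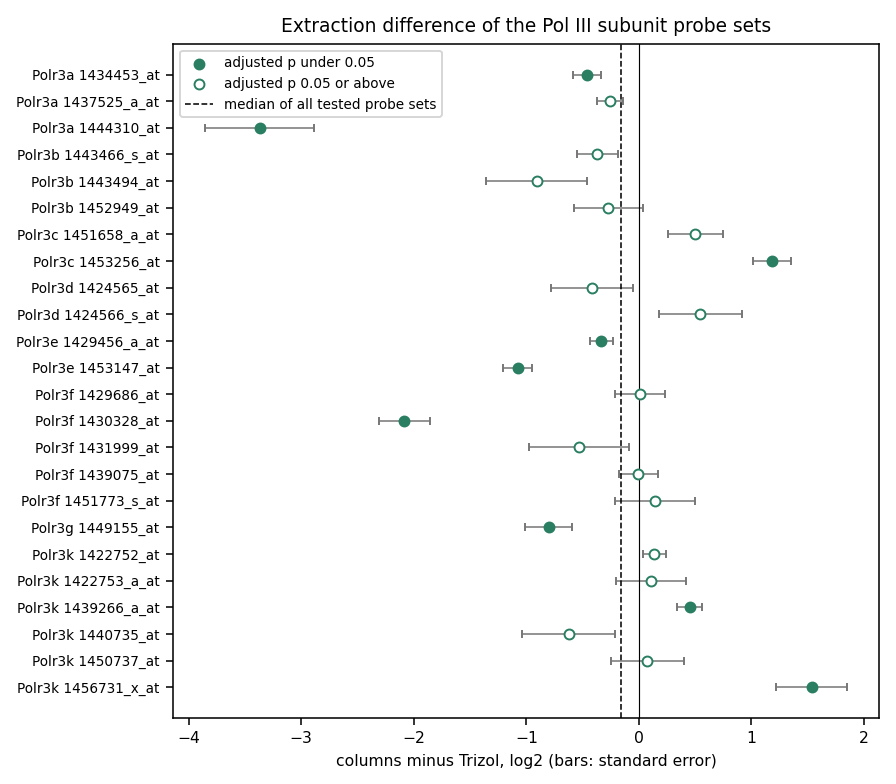
Columns minus Trizol difference in log2 signal for the 24 Pol III subunit probe sets (points, estimates; bars, SE; filled, limma adjusted p under 0.05; dashed line, median of all tested probe sets at -0.16). The values run from -3.37 in Polr3a 1444310_at to 1.53 in Polr3k 1456731_x_at, with 3 filled points to the right of 0 and 6 to the left.

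Markers of some other cell types moved with the extraction method, beside 16.5% of all probe sets called higher and 23.3% lower. All 6 microglial probe sets were higher with columns, and the summed signal of Cx3cr1, C1qa and Csf1r lay between 13877 and 25160 with columns, against 5832 and 9676 with Trizol. Of 12 astrocyte probe sets (Gfap, Aqp4 and Slc1a3) 9 were higher and 2 lower, with summed signals of 10861 to 22064 with columns, against 7359 to 10665 with Trizol. Of 14 oligodendrocyte probe sets 10 were higher and 1 lower, and of 5 for CA1 pyramidal cells 4 were higher and 1 lower. Of 7 for dentate granule cells 2 were lower, of 5 for endothelial cells 1 was higher, of 2 for CA3 pyramidal cells 1 was higher, and of 4 for interneurons 0 were called. The natural log of the 3' to 5' signal ratio, a measure related to RNA integrity, averaged 0.893 with columns and 1.19 with Trizol for Gapdh. For Actb it averaged 1.28 with both, with medians of 1.21 with columns and 1.28 with Trizol. The highest Actb value of all mice, 2.24, was that of NH162, extracted with columns. With handling, 3 of the 4 interneuron probe sets (Gad1 and Gad2) were called higher, and 1 of the 4 after quantile normalization. Their summed signal lay between 9361 and 15950 in handled mice, against 6198 and 11683 in non-handled mice. Called lower were 1 of 7 dentate granule cell, 1 of 14 oligodendrocyte, 1 of 12 astrocyte and 1 of 5 endothelial probe sets. Higher were 1 of 12 astrocyte and 1 of 5 CA1 pyramidal cell probe sets. No microglial or CA3 pyramidal cell probe set was called. Of all probe sets, 3.58% were called higher with handling and 7.93% lower. After quantile normalization the oligodendrocyte and endothelial calls remained. The part of any of these in the subunit differences was not tested. In a fit with RNA quality covariates, 6 of the 9 extraction calls of the subunits remained. Over all probe sets the extraction calls went from 17930 to 11287 in that fit.

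The rest of the enzyme was read from lists of genes, which were chosen with earlier results of these data known. Polr3gl (which can replace Polr3g in the complex), Crcp (a stalk subunit), Polr1c and Polr1d (shared with RNA polymerase I) and Polr2e, Polr2f and Polr2h (shared by all 3 enzymes) had 14 probe sets, of which 9 were higher with columns and 0 lower, with a median of 0.57, beside 16.5% of all probe sets higher and 23.3% lower. Quantile normalization gave the same counts. The 4 largest were Polr3gl 1451364_at at 1.07, Polr1d 1448287_at at 1.06, Polr2e 1417138_s_at at 1.02 and Polr2f 1415754_at at 0.99. Polr3g and its alternative Polr3gl thus differed in opposite directions, at -0.80 and 1.07, though Polr3g did not pass the test after quantile normalization. With handling, where 7.93% of all probe sets were lower, 4 of the 14 were called lower, Polr2e 1451093_at at -0.63, Polr1d 1447320_x_at at -0.30, Polr1d 1459657_s_at at -0.27 and Polr2h 1424473_at at -0.25, of which 1 was called after quantile normalization. Polr2k and Polr2l had no probe set named for them alone.

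The initiation factors of RNA polymerase III are TFIIIA (Gtf3a), TFIIIB (Brf1 or Brf2, Bdp1 and Tbp), TFIIIC (Gtf3c1 to Gtf3c6) and the SNAPc complex. Of their 32 probe sets, 8 were higher with columns and 12 lower (16.5% and 23.3% of all probe sets), with a median of -0.31, and 10 were higher and 7 lower after quantile normalization. The largest were lower, Gtf3c2 1440307_at at -2.78 (SE 0.51), Snapc4 1455552_at at -2.05 (SE 0.39), Snapc3 1428761_a_at at -2.03 (SE 0.39) and Gtf3c1 1459673_at at -1.81 (SE 0.47). Another probe set of Gtf3c1, 1434066_at, was higher with columns at 0.42 (SE 0.13), with 0.79 (SE 0.16) within handled and 0.09 (SE 0.17) within non-handled mice. With handling 0 of the 32 were called in either direction, beside 11.5% of all probe sets.

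Of 28 probe sets for regulators and RNA partners of the enzyme, 4 were higher with columns and 9 lower, beside 16.5% and 23.3% of all probe sets, and 6 were higher and 6 lower after quantile normalization. Maf1, the repressor of RNA polymerase III, was higher with columns in 1451126_at at 1.19 (SE 0.10) and in 1420046_s_at at 1.07 (SE 0.09). The same 2 probe sets were lower in handled than in non-handled mice, by -0.35 (SE 0.09) and -0.34 (SE 0.09). Both were called before and after quantile normalization. These differences were -0.41 (SE 0.10) and -0.42 (SE 0.09) with columns, and -0.23 (SE 0.18) and -0.18 (SE 0.17) with Trizol. The third Maf1 probe set, 1420047_at, was called neither between extraction methods, at -0.50 (SE 0.56), nor with handling, at -0.85 (SE 0.52). With handling 1 of the 28 was called higher and 3 lower, beside 3.58% and 7.93% of all probe sets. Csnk2a1 and Csnk2a2, the catalytic subunits of casein kinase 2, had probe sets lower with columns in 1453427_at at -2.20 (SE 0.43) and in 1453099_at at -0.97 (SE 0.12), while Csnk2a1 1419036_at was higher with columns at 0.60 (SE 0.09, limma adjusted p = 1.12e-06). Their handling calls went both ways, Csnk2a1 1419037_at at 0.35 (SE 0.11) and Csnk2a2 1419936_at at -1.51 (SE 0.49), and neither was called after quantile normalization.

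Subunits particular to the other RNA polymerases were set beside these. Of 13 probe sets for RNA polymerase I, 1 was called between extraction methods, Polr1a 1456066_a_at at -1.47 (SE 0.40), beside 39.8% of all probe sets. After quantile normalization this call was lost (-0.99, limma adjusted p = 0.0503) and 2 others were higher. With handling 0 of the 13 were called, beside 11.5% of all probe sets. Of 9 for RNA polymerase II, 4 were higher with columns, among them Polr2i at 0.78 (SE 0.14) and Polr2c at 0.75 (SE 0.12). Only Polr2b was lower, at -0.21 (SE 0.08), beside 16.5% of all probe sets higher and 23.3% lower. After quantile normalization 7 of the 9 were higher and 1 lower. Polr2b was also the 1 probe set of the 9 called with handling, at 0.24 (SE 0.07), beside 3.58% of all higher. It was not called after quantile normalization.

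Mice that were high in Polr3k 1456731_x_at within their group were compared with their levels of the other 23 probe sets, as correlations of deviations from the 4 means of handling and extraction. In 1456731_x_at the 4 handled mice with Trizol spread most (SD 1.81, against 0.30 to 0.59 in the other groups), so they weigh most in r. Pearson's r lay between -0.40 and 0.41 over 25 mice, 13 of 23 were positive, and 0 had an adjusted p under 0.05 in a two-sided permutation test. The highest, with Polr3k 1422752_at, was r = 0.41 (rho = 0.36, permutation p = 0.0817 for r and 0.107 for rho, adjusted p = 0.825 and 0.824), and r fell to 0.17 without H113 and H130. The lowest, with Polr3a 1434453_at, was r = -0.40 (rho = -0.49, permutation p = 0.00792 for r and 0.00993 for rho, adjusted p = 0.182 and 0.228), and r was -0.61 without the same mice.

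Among 19578 probe sets naming 1 gene in the upper 50% of mean signal, none of the subunits was among the 5 most alike in pattern to 1456731_x_at over the 25 mice. These were Hlf 1434736_at (r = 0.86, rho = 0.83), Psmd1 1429291_at (r = 0.85, rho = 0.83), Rps6 1416142_at (r = 0.84, rho = 0.84), Fa2h 1426960_a_at (r = 0.81, rho = 0.70) and Cog7 1443486_at (r = 0.81, rho = 0.81). The most opposed were Adar 1434268_at (r = -0.87, rho = -0.82), Mon2 1428817_at (r = -0.86, rho = -0.75) and Tnrc6a 1439246_x_at (r = -0.84, rho = -0.77). The pattern includes both the handling and the extraction differences, and within the 4 groups r was 0.69 for Rps6, 0.60 for Hlf and 0.17 for Fa2h, against -0.60 for Adar. In Rps6 the log2 signal with Trizol was 9.69 in H113 and 8.99 in H126, and 8.31 and 8.72 in H130 and H131, the same order of the first 2 over the last 2 as in 1456731_x_at. As these were picked from a search for likeness, the correlations are descriptions with no test.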

How the data were processed

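The deposited values are linear intensity: MAS 5.0 signal that the authors computed in Affymetrix Expression Console 1.1, in which 1 scaling factor is applied per array and distributions are not matched. All 25 arrays were used and 0 columns were left without a sample. Extraction method was read from the labels, which give it by position in the list of samples. The 64 control probe sets were left out. Log2 signal was fitted with limma 3.58.1 in R 4.3.3 (trended prior, handling and extraction as terms, and their interaction in a second fit), two-sided, with Benjamini-Hochberg adjustment over 45037 probe sets. Correlations used 100000 permutations of mice within the 4 groups (Python 3.11.15, numpy 2.4.6, pandas 2.3.3, scipy 1.17.1), and figures matplotlib 3.10.9. The fits were tested on simulated data. Precision is limited by the number of arrays.

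Genes came from the platform annotation (34958 probe sets with 1 gene, 932 with several, 9211 with none), updated by gene identifier for 34754, and positions from RefSeq on GRCm38.p6. Named are all 24 probe sets of the 8 subunits, up to 4 per other list by size of extraction difference among those called, those called with handling, and the 5 most alike and 3 most opposed to Polr3k 1456731_x_at. A second probe set each of Gtf3c1 and Csnk2a1 was named, and leaving out a mouse that stood apart within 1 extraction method was added, after the values were seen. Members and lists were chosen with earlier results of these data known. As alternatives, arrays were quantile normalized or scaled to 1 common mean and SD, and further fits used an offset of 32 before the log, the dimmest 25% left out, no trended prior, array weights, RNA quality covariates, fits without the other term or within groups, and each mouse left out.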

Additional observations from a re-analysis of the deposited data

Results flagged for a closer look

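Groups of mice numbered 96 (24 probe sets in 4 groups of handling and extraction). Of these, 17 held a mouse whose log2 signal stood apart from the rest of its group by Dixon's test at the 95% level. That level means about 1 group in 20 only where values are normally distributed. How often other probe sets held such a mouse was not counted, so nothing is drawn from the number. H113 and NH144, both extracted with Trizol, each account for 3 of the 17. In Polr3k, H113 was high among handled mice with Trizol at 9.24 in 1422752_at and 7.84 in 1422753_a_at, and handled mice with columns were low in 1422753_a_at (H117, 5.20), 1440735_at (H108, 3.17) and 1456731_x_at (H118, 10.12). That last value was still above every non-handled mouse.

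In Polr3a 1437525_a_at NH170 with columns was low at 7.96 and NH144 with Trizol at 8.41. In Polr3b 1452949_at NH144 was low at 5.56. In Polr3d 1424566_s_at the low mice were H113 at 4.61, NH144 at 4.36 and, with columns, NH162 at 5.51, and in Polr3d 1424565_at it was NH163 at 5.09. H118 was low in Polr3c 1451658_a_at at 6.16, H110 in Polr3f 1430328_at at 4.88 and H126 in Polr3f 1451773_s_at at 2.99. In Polr3g 1449155_at H131 was low at 8.14 among handled mice with Trizol, and NH163 at 5.22 among non-handled mice with columns. Without H126, the extraction difference of Polr3f 1451773_s_at was -0.23 in place of 0.14.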

How the results depend on the processing

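The scaling of the arrays changed more calls than any other choice tried. Subunit probe sets higher with columns numbered 3 as deposited, 7 under quantile normalization and 5 with arrays scaled to the same mean and SD, and those lower numbered 6, 3 and 3, and 3 with RNA quality covariates. Leaving out each mouse gave 3 to 3 higher and 6 to 7 lower, the seventh being Polr3a 1437525_a_at without NH144 or Polr3b 1443494_at without NH138. The 6 calls kept under quantile normalization, mean and SD scaling and RNA quality covariates were Polr3a 1444310_at, Polr3c 1453256_at, Polr3e 1453147_at, Polr3f 1430328_at and Polr3k 1439266_a_at and 1456731_x_at. The last of these is given as a description, since handling values chose it. With handling, whose values chose Polr3k 1456731_x_at so that its call in any setting supports nothing, 1 was higher as deposited, 2 with mean and SD scaling or array weights (the second Polr3a 1437525_a_at) and 0 within Trizol, where 0 of all 45037 were called. The number lower was 0, and 1 with array weights or without H126 (Polr3b 1443494_at, -1.25 in both). Leaving out mice gave 1 to 1 higher and 0 to 1 lower, and 0 to 0 for the interaction. Over all probe sets quantile normalization changed the handling calls from 1614 higher and 3571 lower to 1319 and 1595.

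Extraction differences not past the test as deposited turned sign as follows. Under quantile normalization Polr3b 1452949_at was 0.19, Polr3d 1424565_at 0.030 and Polr3f 1439075_at 0.44, and with mean and SD scaling Polr3b 1452949_at was 0.058 and Polr3f 1439075_at 0.30. With RNA quality covariates Polr3f 1429686_at was -0.21, Polr3f 1451773_s_at -0.21 and Polr3k 1450737_at -0.64. With array weights Polr3f 1451773_s_at was -0.0035 and Polr3k 1422753_a_at -0.0145. Within handled mice Polr3b 1452949_at was 0.19, Polr3f 1439075_at 0.0075 and Polr3k 1422753_a_at -0.65, and within non-handled mice Polr3f 1429686_at was -0.043, Polr3f 1451773_s_at -0.20 and Polr3k 1450737_at -0.17. Leaving out mice gave -0.10 to 0.10 for Polr3f 1429686_at, -0.083 to 0.068 for Polr3f 1439075_at, -0.23 to 0.24 for Polr3f 1451773_s_at, -0.30 to 0.26 for Polr3k 1422753_a_at (lowest without NH147) and -0.054 to 0.19 for Polr3k 1450737_at (lowest without H130). The causes were not tested. No paired analysis was possible because handled and non-handled mice share no mouse number.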
